A study of Mus musculus with 14 samples.

Results

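Transcripts of 10 secreted Wnt modulators were followed in mouse forelimb buds by RNA-seq: the R-spondins *Rspo1*, *Rspo2*, *Rspo3* and *Rspo4*, the Dickkopf genes *Dkk1*, *Dkk2* and *Dkk3*, and the secreted Frizzled-related genes *Sfrp1*, *Sfrp2* and *Frzb*. They were taken by gene symbol from the 23284 symbols counted in each sample, and were chosen with earlier results of these data known. All 10 passed the expression filter and were among the 12393 genes tested. Each of the 14 samples was the pair of forelimb buds of 1 NMRI embryo. The wild-type group was Smad4+/+ PrxCreT/+ and the mutant group Smad4Δ/Δc PrxCreT/+, so that both genotypes carried the *Prrx1*-CRE transgene. There were 3 wild-type and 4 mutant embryos at E10.0 (30 somites) and again at E10.5 (35 somites). In mutants 1 *Smad4* allele was deleted throughout and the other only where the *Prrx1* enhancer drives CRE, which is the limb bud mesenchyme. Ectoderm, endothelium and blood in the same RNA therefore kept a *Smad4* allele.

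Canonical Wnt signaling starts when a WNT ligand joins a Frizzled receptor to the co-receptors LRP5 or LRP6, which stabilizes β-catenin and lets it activate transcription with TCF and LEF factors. R-spondins amplify the signal: with the receptors LGR4, LGR5 and LGR6 they remove the ubiquitin ligases ZNRF3 and RNF43, which otherwise clear Frizzled from the cell surface. Dickkopf proteins DKK1 and DKK2 bind LRP5 and LRP6 and keep them from the ligand, whereas DKK3 is a divergent family member. Secreted Frizzled-related proteins carry a Frizzled-like domain that binds WNT ligands outside the cell. In limb buds, Wnt signaling maintains the apical ectodermal ridge (AER) and keeps the subridge mesenchyme from differentiating, and BMP signaling through SMAD4 acts in the same tissues.

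Between 34066930 and 61691258 reads per embryo were counted on genes, and the modulators had from 102 reads (*Rspo1*) to 11263 reads (*Sfrp1*) in an embryo. *Smad4* itself had 152 to 169 CPM in wild-type and 36.9 to 46.0 CPM in mutant embryos at E10.0, and 163 to 167 CPM against 32.9 to 40.7 CPM at E10.5, so that the labels held in all 14 embryos. CPM are read counts scaled to library size with TMM normalization. Mutant replicates 4 and 5 of both stages stood apart from the other libraries: the ribosomal RNA precursor *Rn45s* took 1.72% to 8.05% of their gene reads, while the 10 remaining libraries had 0.151% to 0.478%. All 4 are mutants, and the other 4 mutant libraries are among the 10. Values from the replicates numbered 1 to 3 alone, which leave 2 mutants per stage, are therefore given beside those of the modulators, though not for other genes. All 6 limb mesenchyme markers were detected in every embryo, with summed levels of 1352 to 1915 CPM. All 10 markers of limb ectoderm and AER were detected too, with sums of 193 to 345 CPM.

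Promoter sequence is shown for the genes that were lower in mutants, because the mutation removes a transcription factor. The RefSeq table held promoters for 6 of the 10 genes, namely *Rspo1*, *Rspo4*, *Dkk1*, *Dkk2*, *Sfrp2* and *Frzb*. The 250 bases before the start of transcription (GRCm38.p6) are printed 5′ to 3′ on the strand of the gene, and capitals mark 4 motifs searched on both strands. One was the BMP-responsive SMAD motif GGCGCC, and another the core CAGAC of the SMAD binding element. The remaining ones were the TCF/LEF core CTTTGA and its variant CTTTGT, which differs from it in the last base alone. Windows lie at chr2:151842677-151842926 (plus strand) for *Rspo4*, chr19:30549497-30549746 (minus strand) for *Dkk1*, chr3:132085042-132085291 (plus strand) for *Dkk2* and chr3:83766071-83766320 (plus strand) for *Sfrp2*.
Rspo4: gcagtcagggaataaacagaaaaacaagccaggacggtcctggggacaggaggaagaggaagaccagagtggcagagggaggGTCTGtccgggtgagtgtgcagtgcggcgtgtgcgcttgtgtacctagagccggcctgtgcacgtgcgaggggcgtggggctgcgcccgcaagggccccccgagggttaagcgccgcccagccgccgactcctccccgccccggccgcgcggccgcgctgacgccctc
Dkk1: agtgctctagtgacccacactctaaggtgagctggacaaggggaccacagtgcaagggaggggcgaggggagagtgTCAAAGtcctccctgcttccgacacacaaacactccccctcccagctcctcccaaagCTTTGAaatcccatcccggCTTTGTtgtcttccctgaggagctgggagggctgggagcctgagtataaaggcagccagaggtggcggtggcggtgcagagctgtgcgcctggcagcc
Dkk2: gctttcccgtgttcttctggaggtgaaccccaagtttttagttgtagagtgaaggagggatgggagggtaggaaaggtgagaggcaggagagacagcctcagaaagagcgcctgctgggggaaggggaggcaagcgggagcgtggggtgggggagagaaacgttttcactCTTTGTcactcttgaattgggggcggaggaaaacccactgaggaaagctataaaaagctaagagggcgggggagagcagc
Sfrp2: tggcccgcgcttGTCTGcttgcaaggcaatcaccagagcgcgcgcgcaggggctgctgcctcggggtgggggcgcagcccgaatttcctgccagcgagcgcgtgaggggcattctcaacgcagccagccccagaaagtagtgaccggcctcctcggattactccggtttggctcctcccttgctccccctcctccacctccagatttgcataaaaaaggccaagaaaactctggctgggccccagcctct

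In these windows *Rspo4* and *Sfrp2* each had 1 CAGAC core. *Dkk1* had 2 CTTTGA matches and 1 CTTTGT match, and *Dkk2* had 1 CTTTGT match. Of 32851 promoter windows of the same length, 42.2% held CAGAC, 13.8% CTTTGA, 16.5% CTTTGT and 9.59% GGCGCC on either strand. GGCGCC was in none of the 4 windows printed and in that of *Rspo1* once. The matches are letters in a window and do not show binding.

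Levels of different genes were compared per length, as CPM per kb of merged exons. In wild type at E10.0, *Rspo4* stood first with 35.3 ± 2.43 CPM per kb (SD, n=3), followed by *Sfrp1* (29.1 ± 3.86), *Frzb* (23.9 ± 2.43) and *Sfrp2* (20.3 ± 1.14). These 4 were well above the others, since *Rspo2* came next with 7.79 ± 0.423 CPM per kb and did not overlap *Sfrp2* in any embryo. *Dkk1* (6.58 ± 1.49) overlapped both *Rspo2* and *Rspo3* (5.26 ± 1.76), *Rspo3* lay below *Rspo2* in every embryo, and *Dkk2* (2.25 ± 0.182) lay below them. *Rspo1* (1.499 ± 0.295) and *Dkk3* (1.32 ± 0.0679) were lowest and overlapped. By E10.5 *Sfrp1* was first in wild type with 37.8 ± 2.88 CPM per kb, without overlap with *Frzb* (27.8 ± 0.928), and *Rspo4* was at rank 3 with 24.2 ± 3.02. In mutants at E10.5 *Rspo4* was at rank 5, with 8.99 ± 0.491 CPM per kb (SD, n=4), and overlapped *Rspo3* (9.98 ± 0.672). *Dkk1* had rank 6 in wild type and 8 in mutants at E10.0, which became 7 and 9 by E10.5. Neighbours in this order overlapped in 6 of 9 pairs in wild type at E10.0, 5 of 9 in mutants at E10.0, 3 of 9 in wild type at E10.5 and 4 of 9 in mutants at E10.5.

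**Figure D1:**
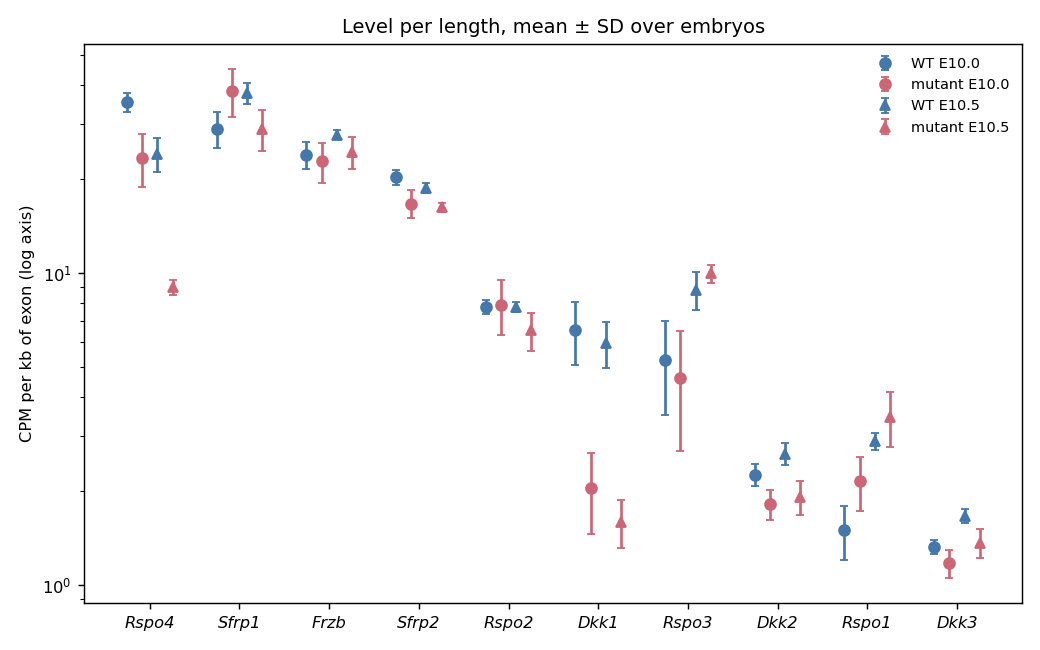
Level of each gene per length (CPM per kb of merged exons, log axis), as the mean with bars of ± 1 SD over embryos. Blue marks wild type (n=3), red mutants (n=4), circles E10.0 and triangles E10.5. *Rspo4* stands at 35.3 CPM per kb in wild type at E10.0 and at 8.99 in mutants at E10.5.

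The first question was which modulators differ between mutants and wild type. Mutants lost both *Smad4* alleles in the mesenchyme and 1 allele elsewhere, and RNA of whole buds cannot tell these apart. A gene was called where the exact test of edgeR gave an FDR up to 0.1 (Benjamini-Hochberg, over all 12393 genes) together with a change of 1.2-fold or more, and all adjusted *P* values below are from this test unless stated. At E10.0, 4 of the 10 modulators were called: *Rspo4*, *Dkk1* and *Sfrp2* were lower and *Sfrp1* was higher in mutants. Of all genes tested, 6.61% were called, 3.33% higher and 3.28% lower. At E10.5, *Rspo4*, *Dkk1* and *Dkk2* were called and all 3 were lower, against 3.73% of all genes called and 1.54% called lower. The median log2 fold change of the 10 modulators was -0.18 at the earlier stage (-0.02 over all genes tested) and -0.26 at the later (-0.01). *Rspo4* and *Dkk1* were the only 2 called at both stages. In forelimb buds, a lower count can come from fewer cells that express a gene or from less RNA per cell, and these cannot be told apart.

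**Figure D2:**
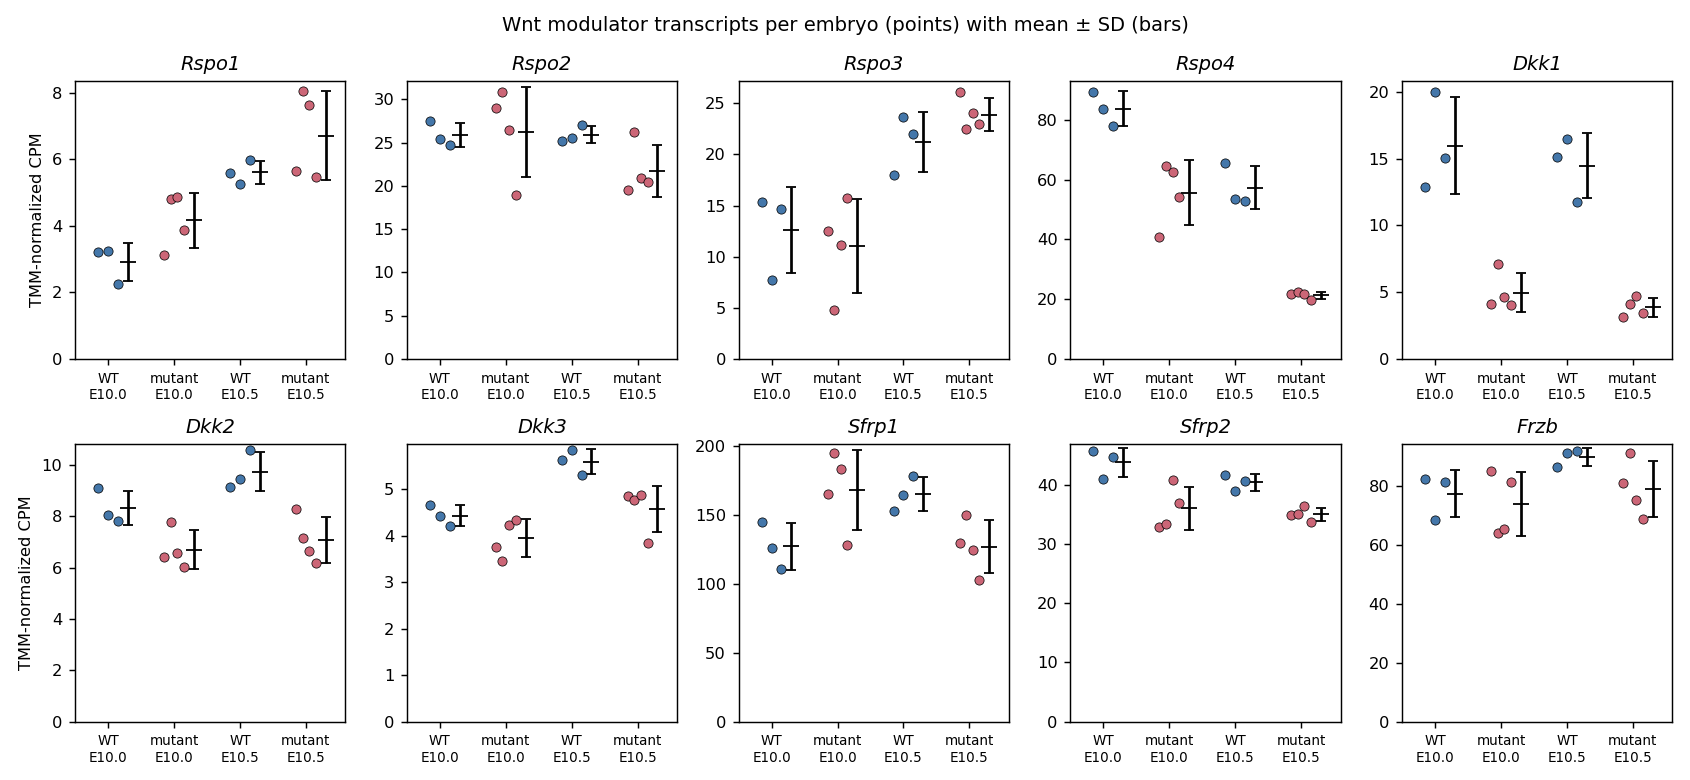
TMM-normalized CPM of each gene in every embryo (points, blue for wild type and red for mutants), with the mean and ± 1 SD beside them (n=3 wild type, n=4 mutants per stage; each panel has its own axis from 0). *Dkk1* reaches at most 7.08 CPM in mutants and *Rspo4* falls to between 19.7 and 22.4 CPM in mutants at E10.5.

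*Rspo4* (chr2:151668663-151700404, plus strand, mm9) encodes the R-spondin whose loss in humans leaves nails absent. At E10.0, the wild-type embryos had 89.5, 83.7 and 77.9 CPM (replicates 1, 2 and 3), while the mutants had 40.8, 64.7, 62.6 and 54.2 CPM (replicates 1, 3, 4 and 5). Every mutant embryo was below every wild-type embryo, and mutant replicate 1 was the lowest. The mean level was 66.4% of wild type, with a log2 fold change of -0.59 (SE 0.152, adjusted *P*=0.000370). At E10.5, wild-type embryos had 65.6, 53.5 and 52.9 CPM, whereas the mutants (replicates 1, 2, 4 and 5) had 21.6, 22.4, 21.6 and 19.7 CPM. The mutants lay close together and far from the wild type. Their mean was 37.2% of wild type, a log2 fold change of -1.43 (SE 0.111, adjusted *P*=9.01e-25). With replicates 1 to 3 alone, the log2 fold changes were -0.65 and -1.37, both called. Leaving out any 1 of the 14 embryos kept both calls, with values of -0.67 to -0.46 at E10.0 and -1.47 to -1.31 at E10.5.

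The other R-spondins were not called between genotypes at either stage. *Rspo2* (chr15:42852357-43002364, minus strand), which is needed for outgrowth of limbs in mice, ranged from 19.0 to 30.8 CPM over the 14 embryos, the narrowest range of the 4 R-spondins (1.62-fold). Its log2 fold change was 0.02 (SE 0.150, adjusted *P*=0.964) at E10.0 and -0.25 (SE 0.105, adjusted *P*=0.558) at E10.5, and with replicates 1 to 3 alone 0.22 (edgeR adjusted *P*=0.203) and -0.17 (0.547). *Rspo3* (chr10:29172915-29255673, minus strand), a regulator of vascular and placental development, varied among embryos of 1 group more than any other modulator at E10.0, with a coefficient of variation of 33.5% in wild type and 41.8% in mutants. At E10.5 its coefficient was 13.8% and 6.74%, below that of *Dkk1* (16.8% and 17.9%) in both genotypes. At E10.0 it had 15.4, 7.73 and 14.6 CPM in wild type and 12.5, 4.74, 11.2 and 15.7 CPM in mutants, so that 1 embryo of each genotype was low. Its genotype difference was -0.19 on the log2 scale (SE 0.411, adjusted *P*=0.768) at E10.0 and 0.17 (SE 0.125, adjusted *P*=0.939) at E10.5. With replicates 1 to 3 alone it was -0.53 (edgeR adjusted *P*=0.246) and 0.21 (0.808).

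*Rspo1* (chr4:124663674-124686343, plus strand), which promotes ovarian differentiation, was the only R-spondin with a higher mean in mutants at both stages. At E10.0 wild-type embryos had 3.22, 3.25 and 2.25 CPM and mutants 3.13, 4.80, 4.86 and 3.89 CPM. Mutant replicate 1 fell within the wild-type range and the 3 others were above it. The log2 fold change was 0.51 (SE 0.217, adjusted *P*=0.128) at E10.0 and 0.26 (SE 0.153, adjusted *P*=0.776) at E10.5, and 0.46 and 0.30 with replicates 1 to 3 alone. It passed the threshold at E10.0 under DESeq2 (0.53, DESeq2 adjusted *P*=0.0729), with genes filtered at 5 CPM (0.53, edgeR adjusted *P*=0.0989), without mutant replicate 1 of E10.0 (0.64, edgeR adjusted *P*=0.0392) and without mutant replicate 1 of E10.5 (0.52, edgeR adjusted *P*=0.0970).

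*Dkk1* (chr19:30620353-30624155, minus strand) encodes an LRP5 and LRP6 antagonist that is needed for formation of the head and for normal digits. It had the largest genotype difference of the 10 genes at both stages. At E10.0, wild-type embryos had 12.9, 19.96 and 15.03 CPM, whereas the mutants (replicates 1, 3, 4 and 5) had 4.10, 7.08, 4.64 and 4.03 CPM. The highest mutant was well below the lowest wild type. The mutant mean was 31.1% of wild type, a log2 fold change of -1.68 (SE 0.281, adjusted *P*=2.27e-13). At E10.5, wild-type embryos had 15.1, 16.5 and 11.8 CPM and mutants 3.17, 4.14, 4.70 and 3.45 CPM. The groups were again apart, and the mean was 26.7% of wild type (log2 fold change -1.90, SE 0.190, adjusted *P*=2.00e-16). Replicates 1 to 3 alone gave -1.49 and -1.98, and leaving out any 1 embryo gave -1.91 to -1.49 at E10.0 and -2.03 to -1.79 at E10.5, with all calls kept. The summed CPM of the 10 ectoderm and AER markers was 268 to 345 in wild type and 214 to 313 in mutants at E10.0, and 256 to 270 against 193 to 269 at E10.5. Of these markers 1 was called lower at E10.0, and 0 were at E10.5. The 6 mesenchyme markers summed to 1507 to 1754 CPM in wild type and 1352 to 1634 CPM in mutants at E10.0, with 3 called lower, and to 1769 to 1915 against 1617 to 1835 CPM at E10.5, with 2 called lower and 1 higher. The part of these shifts in the lower *Rspo4*, *Dkk1*, *Dkk2* and *Sfrp2* was not tested.

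*Dkk2* (chr3:131748256-131843257, plus strand), which can inhibit or activate LRP6 depending on its partners, was lower in every mutant than in every wild-type embryo at both stages. At E10.0 it had 9.08, 8.06 and 7.81 CPM in wild type and 6.41, 7.77, 6.56 and 6.03 CPM in mutants, where the nearest mutant was just below the lowest wild type. Its log2 fold change of -0.31 (SE 0.106, adjusted *P*=0.202) did not pass, nor did -0.21 with replicates 1 to 3 alone (edgeR adjusted *P*=0.383). At E10.5 it had 9.15, 9.45 and 10.6 CPM in wild type and 8.29, 7.16, 6.65 and 6.19 CPM in mutants. The log2 fold change was -0.45 (SE 0.113, adjusted *P*=0.0410), with a mutant mean of 72.7% of wild type. This call rested on single libraries: it was lost without mutant replicate 4 (-0.42, edgeR adjusted *P*=0.148), mutant replicate 5 (-0.40, 0.202), wild-type replicate 2 (-0.47, 0.152) or wild-type replicate 3 (-0.38, 0.307) of E10.5, and with replicates 1 to 3 alone (-0.32, 0.336).

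*Dkk3* (chr7:119259533-119302571, minus strand) was the least expressed modulator per length in all 4 groups, at 3.46 to 5.83 CPM. It was not called at E10.0 (log2 fold change -0.17, SE 0.0858, adjusted *P*=0.602). At E10.5 its wild-type embryos had 5.30 to 5.83 CPM and its mutants 3.84 to 4.87 CPM. The groups did not overlap, but the log2 fold change of -0.28 (SE 0.0878, adjusted *P*=0.503) was not called. Replicates 1 to 3 alone gave -0.28 and -0.21 at these stages, neither called.

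*Sfrp1* (chr8:24521974-24560104, plus strand), a secreted antagonist that binds WNT ligands, had a higher mean in mutants at E10.0 and a lower mean at E10.5. At E10.0 it had 145, 126 and 111 CPM in wild type and 165, 195, 183 and 128 CPM in mutants. Mutant replicate 5 lay within the wild-type range and the 3 others above it. The log2 fold change of 0.40 (SE 0.167, adjusted *P*=0.0655) was called. At E10.5 the order was turned round, with 153, 165 and 178 CPM in wild type and 130, 150, 125 and 103 CPM in mutants. Every mutant was then below every wild-type embryo, but the log2 fold change of -0.38 (SE 0.127, adjusted *P*=0.113) did not pass. The E10.0 call was lost under edgeR's quasi-likelihood test (0.40, adjusted *P*=0.135) and without mutant replicate 3 (0.32, edgeR adjusted *P*=0.190), mutant replicate 4 (0.36, 0.127), wild-type replicate 2 (0.39, 0.177) or wild-type replicate 3 (0.32, 0.453). The E10.5 difference passed when the E10.5 groups were fitted apart (-0.37, edgeR adjusted *P*=0.0332) and without mutant replicate 3 of E10.0 (-0.38, 0.0913), mutant replicate 5 of E10.0 (-0.38, 0.0395) or mutant replicate 2 of E10.5 (-0.46, 0.0326). With replicates 1 to 3 alone it was 0.52 at E10.0 (edgeR adjusted *P*=0.000411) and -0.23 at E10.5 (0.331).

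Markers of mesothelium and body wall (*Wt1*, *Upk3b*, *Upk1b*, *Msln* and *Lrrn4*) moved in the same directions as *Sfrp1*. Their summed level at E10.0 was 2.95 to 4.84 CPM in wild type and 11.8, 23.7, 20.6 and 10.8 CPM in mutant replicates 1, 3, 4 and 5, the same rank order among mutants as that of *Sfrp1*. At E10.5 the sums were 4.998 to 7.66 CPM in wild type and 2.41 to 4.92 CPM in mutants. The rank orders of the sums and of *Sfrp1* matched within each of the other groups as well. Of the 4 markers tested, 3 were called higher in mutants at E10.0 and 2 lower at E10.5. *Msln* was at 0 in an E10.5 mutant, and all 5 were detected in every other group. Macrophage markers summed to 2.09 to 4.33 CPM in wild type and 5.54 to 7.01 CPM in mutants at E10.0, and 2 of the 3 tested were called higher there. *Rspo1*, unlike the mesothelium sums, had a higher mean in mutants at both stages. The part of such cells in the *Sfrp1* and *Rspo1* values was not tested.

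*Sfrp2* (chr3:83570243-83578238, plus strand), like *Sfrp1* a soluble WNT-binding protein, shares 224 bases with the minus-strand gene *Gm16790*, and the counts were made without regard to strand. At E10.0 it had 45.6, 41.0 and 44.6 CPM in wild type and 32.9, 33.4, 40.8 and 36.9 CPM in mutants. Mutant replicate 4 came close to wild-type replicate 2, without overlap. The log2 fold change was -0.28 (SE 0.0872, adjusted *P*=0.0563), with a mutant mean of 82.3% of wild type. Mutants were also lower at E10.5, at 33.7 to 36.4 CPM against 38.8 to 41.7 CPM in wild type, but the log2 fold change of -0.21 (SE 0.0372, adjusted *P*=0.381) was not called, nor was -0.20 with replicates 1 to 3 alone. The E10.0 call was lost without mutant replicate 1 (-0.23, edgeR adjusted *P*=0.172), mutant replicate 3 (-0.25, 0.149), mutant replicate 5 (-0.30, 0.102), wild-type replicate 1 (-0.25, 0.221) or wild-type replicate 3 (-0.26, 0.347). It was also lost without a low count filter (-0.26, 0.110) and with the E10.0 groups fitted apart (-0.27, 0.160), whereas replicates 1 to 3 alone gave -0.38 (edgeR adjusted *P*=0.00183).

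*Frzb* (chr2:80252127-80287782, minus strand), also known for its part in cartilage, was not called at either stage. It ranged from 64.0 to 92.0 CPM over all embryos, with log2 fold changes of -0.07 (SE 0.135, adjusted *P*=0.825) and -0.18 (SE 0.0911, adjusted *P*=0.653), and of -0.04 and -0.05 with replicates 1 to 3 alone. Across the 10 modulators, the groups did not overlap in 4 at E10.0 (*Rspo4*, *Dkk1*, *Dkk2* and *Sfrp2*) and in 6 at E10.5 (the same 4, *Dkk3* and *Sfrp1*), in each case with mutants below wild type. Among all genes tested, mutants were below wild type without overlap in 9.78% at E10.0 and 6.40% at E10.5.

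**Figure D3:**
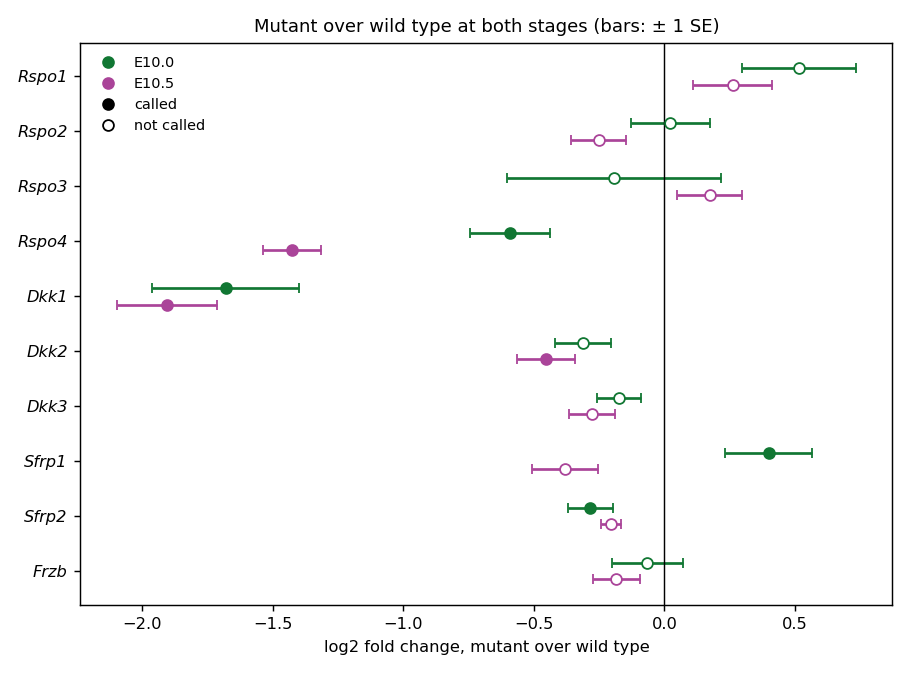
Log2 fold change of mutant over wild type for each gene at E10.0 (green) and E10.5 (purple), with bars of ± 1 SE from the replicate variances. Filled points were called. *Dkk1* and *Rspo4* are filled at both stages, and *Sfrp1* lies on opposite sides of 0, at 0.40 and -0.38.

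The second question was how the modulators change as the bud grows. In wild type, 4 of the 10 changed from E10.0 to E10.5, with *Rspo1*, *Rspo3* and *Sfrp1* higher and *Rspo4* lower. Over all genes 10.1% were called, 5.39% higher and 4.74% lower. The same 4 genes were called in mutants, where 19.2% of all genes were called, 10.8% higher and 8.40% lower, but there *Sfrp1* was lower. The median log2 stage change of the 10 genes was 0.22 in wild type and 0.02 in mutants, against -0.01 for all genes in each. Tissue markers moved with stage as well. Those of trunk paraxial mesoderm summed to 72.0 to 90.5 CPM at E10.0 and 117 to 146 CPM at E10.5 in wild type, with 2 of 4 tested called higher, and to 88.2 to 107 and 143 to 167 CPM in mutants, with 2 higher and 1 lower. All 3 macrophage markers tested were higher at E10.5 in both genotypes, where the sums were 9.45 to 10.6 CPM in wild type and 9.80 to 16.8 CPM in mutants. Of the 4 mesothelium markers tested, 2 were higher in wild type, while 1 was higher and 3 were lower in mutants. Among the 10 ectoderm and AER markers, 2 were lower in wild type, while 2 were higher and 4 lower in mutants. The 6 mesenchyme markers had 0 calls in wild type, and 2 were higher and 1 lower in mutants. The part of these tissues in the stage changes was not tested. Comparisons within a genotype use the same embryos as those between genotypes, and the 2 kinds of comparison are not independent.

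Among the R-spondins, *Rspo1* rose in wild type from 2.25 to 3.25 CPM at E10.0 to 5.26 to 5.97 CPM at E10.5 (log2 fold change 0.94, SE 0.172, adjusted *P*=0.000482). In mutants it rose from 3.13 to 4.86 CPM to 5.47 to 8.06 CPM (0.69, SE 0.202, adjusted *P*=0.00184; 0.80 with replicates 1 to 3 alone). The stages did not overlap in either genotype. *Rspo3* rose in wild type from 7.73 to 15.4 CPM to 17.9 to 23.6 CPM (0.75, SE 0.302, adjusted *P*=0.0861). In mutants its rise was from 4.74 to 15.7 CPM to 22.5 to 26.1 CPM (1.12, SE 0.305, adjusted *P*=0.000146), again without overlap. The wild-type call of *Rspo3* was lost without wild-type replicate 2 (0.50, edgeR adjusted *P*=0.480) or 3 (0.88, 0.113) of E10.0, wild-type replicate 2 (0.67, 0.252) or 3 (0.73, 0.279) of E10.5, or mutant replicate 2 of E10.5 (0.76, 0.101). It was lost as well under the quasi-likelihood test (0.75, edgeR adjusted *P*=0.168), DESeq2 (0.76, 0.189) and no low count filter (0.76, 0.113). The mutant call was kept in every alternative, with 1.504 in replicates 1 to 3 alone.

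*Rspo4* fell in both genotypes. Wild-type embryos went from 77.9 to 89.5 CPM down to 52.9 to 65.6 CPM (log2 fold change -0.55, SE 0.119, adjusted *P*=0.00244), and mutants from 40.8 to 64.7 CPM down to 19.7 to 22.4 CPM (-1.38, SE 0.146, adjusted *P*=9.49e-27; -1.25 with replicates 1 to 3 alone). The level at E10.5 was 68.5% of that at E10.0 in wild type and 38.4% in mutants. *Rspo2* was level in wild type (0.00, SE 0.0556, adjusted *P* of 1) and lower in mutants without a call (-0.27, SE 0.174, adjusted *P*=0.134). That mutant decrease passed without mutant replicate 5 of E10.0 (-0.40, edgeR adjusted *P*=0.00396), without mutant replicate 2 of E10.5 (-0.37, 0.0422) and with replicates 1 to 3 alone (-0.38, 0.0357).

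No Dickkopf gene was called between stages. *Dkk1* had log2 stage changes of -0.14 (SE 0.235, adjusted *P*=0.767) in wild type and -0.37 (SE 0.245, adjusted *P*=0.207) in mutants. *Dkk2* had 0.23 (SE 0.0937, adjusted *P*=0.390) and 0.08 (SE 0.123, adjusted *P*=0.751). For *Dkk3* the values were 0.33 (SE 0.0589, adjusted *P*=0.184) and 0.23 (SE 0.108, adjusted *P*=0.286). In wild type *Dkk3* passed under DESeq2 (0.34, DESeq2 adjusted *P*=0.0766), and its E10.5 embryos were all above its E10.0 embryos. In mutants, replicates 1 to 3 alone gave -0.61 for *Dkk1*, 0.13 for *Dkk2* and 0.42 for *Dkk3*, none of them called.

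*Sfrp1* rose in wild type from 111 to 145 CPM to 153 to 178 CPM (log2 fold change 0.38, SE 0.127, adjusted *P*=0.0902) and fell in mutants from 128 to 195 CPM to 103 to 150 CPM (-0.40, SE 0.166, adjusted *P*=0.0106). The stages were apart in wild type and overlapped in mutants. The wild-type call was lost without wild-type replicate 2 (0.37, edgeR adjusted *P*=0.307) or 3 (0.29, 0.348) of E10.0, wild-type replicate 2 (0.38, 0.183) or 3 (0.33, 0.402) of E10.5, or mutant replicate 4 of E10.5 (0.38, 0.102). It was also lost under the quasi-likelihood test (0.38, edgeR adjusted *P*=0.152) and without a low count filter (0.39, 0.107). The mutant call was kept in every alternative, with -0.36 in replicates 1 to 3 alone. *Sfrp2* and *Frzb* were not called in either genotype, with log2 stage changes of -0.12 and -0.04 for *Sfrp2* and of 0.22 and 0.10 for *Frzb*. With replicates 1 to 3 alone the mutant changes were 0.08 and 0.22. Without overlap between the stages, 6 modulators were higher at E10.5 and 1 lower in wild type, where 16.6% of all genes were higher and 20.4% lower in this way. In mutants 2 modulators were higher and 1 lower, against 11.1% and 8.91% of all genes.

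**Figure D4:**
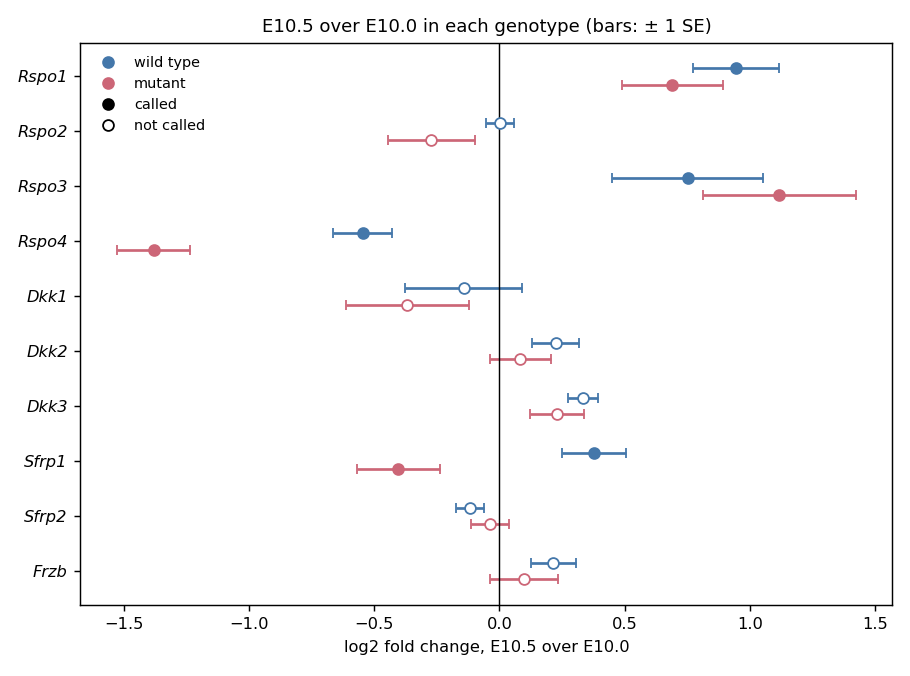
Log2 fold change of E10.5 over E10.0 for each gene in wild type (blue) and mutants (red), with bars of ± 1 SE from the replicate variances and filled points for called genes. *Rspo1* and *Rspo3* rise in both genotypes, *Rspo4* falls further in mutants (-1.38) than in wild type (-0.55), and *Sfrp1* has values of 0.38 and -0.40.

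Whether the genotype difference itself changed between the stages was tested as the interaction of both factors by the quasi-likelihood test of edgeR. None of the 10 modulators was called at an FDR of 0.1, at which 0.186% of all genes (23) were called. At an unadjusted *P* under 0.05 there were 2, *Rspo4* and *Sfrp1*, against 5.76% of all genes. The genotype difference of *Rspo4* was 0.83 lower at E10.5 than at E10.0 on the log2 scale (interaction -0.83, SE 0.188, unadjusted *P*=0.000392, quasi-likelihood adjusted *P*=0.162). For *Sfrp1* the interaction was -0.78 (SE 0.210, unadjusted *P*=0.00131, quasi-likelihood adjusted *P*=0.295). DESeq2 called both, with adjusted *P* values of 0.00453 for *Rspo4* and 0.0252 for *Sfrp1*. *Rspo4* was also called by the quasi-likelihood test without a low count filter (-0.85, adjusted *P*=0.0633) and without mutant replicate 1 of E10.0 (-0.96, adjusted *P*=0.0189), and *Sfrp1* without mutant replicate 5 of E10.0 (-0.89, adjusted *P*=0.0731). With replicates 1 to 3 alone the interaction was -0.72 for *Rspo4* (quasi-likelihood adjusted *P*=0.544) and -0.75 for *Sfrp1* (0.326). The other 8 modulators had interactions of -0.27 (*Rspo2*) to 0.37 (*Rspo3*), with adjusted *P* values of 0.950 to 0.963, and with replicates 1 to 3 alone of -0.48 (*Dkk1*) to 0.74 (*Rspo3*), also without a call.

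For the 5 modulators called between genotypes, the genes with the most similar profile were sought as those with the smallest root mean square difference of centred log2(CPM + 1) over the 14 embryos, among all genes tested. Nearest to *Dkk1* were *Id1* (0.211), *Msx2* (0.235) and *Id3* (0.292), on a scale where the deviation of *Dkk1* from its own mean was 0.827. *Id1* had mean levels of 40.1 and 17.04 CPM in wild type and mutants at E10.0 and of 35.0 and 13.9 CPM at E10.5, and *Msx2* had 43.8, 21.1, 39.6 and 12.6 CPM in the same order. *Rspo4* (own deviation 0.740) had as nearest genes *Gata5* (0.274), *Smad9* (0.293) and *Prdm6* (0.333), which are expressed at much lower levels. *Prdm6*, the highest of the 3, had 6.19 CPM in wild-type embryos, compared with 3.52 CPM in mutants at E10.0. *Gata5* had 2.49 and 2.22 CPM in wild type and mutants at E10.0, and 1.88 and 0.309 CPM at E10.5. At such levels the added 1 CPM makes changes on this scale smaller than the fold changes of CPM. The nearest to *Sfrp1* (own deviation 0.265) were *Bmp5* (0.125), *Crispld2* (0.147) and *St8sia1* (0.158), with *Bmp5* at 5.71 and 7.07 CPM at E10.0 and 7.93 and 5.17 CPM at E10.5. *Dkk2* (0.217) was followed most closely by *Fstl1*, *Lhfp* and *Thsd7a* at 0.105 to 0.113, and *Sfrp2* (0.147) by *Fam53b*, *Acap3* and *Sufu* at 0.0605 to 0.0690. These are descriptions over shared libraries and carry no test.

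Other genes of the Wnt pathway were counted in 5 lists of 60 genes in all, of which 50 were tested. At E10.0, 3 were called higher and 4 lower in mutants, and at E10.5 0 were higher and 3 lower. That is 7 and 3 of 50 genes, beside 6.61% and 3.73% of all genes. None of the 5 genes that encode R-spondin receptors and their ligases (*Lgr4*, *Lgr5*, *Lgr6*, *Znrf3* and *Rnf43*) was called between genotypes, with median log2 fold changes of 0.15 at E10.0 and -0.13 at E10.5. From the first to the later stage, *Lgr5* rose in both genotypes, from 2.10 ± 0.174 to 3.85 ± 0.345 CPM in wild type (log2 fold change 0.87, adjusted *P*=0.000121) and from 1.98 ± 0.224 to 3.36 ± 0.358 CPM in mutants (0.77, adjusted *P*=4.96e-05). *Znrf3* fell in mutants from 32.5 ± 1.48 to 25.0 ± 1.67 CPM (-0.38, adjusted *P*=0.00102) and was at 29.2 ± 2.24 and 29.0 ± 3.06 CPM in wild type. *Lgr5* and *Znrf3* were singled out after their values had been seen.

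Of the 16 receptors and co-receptors tested (of 17 listed), 2 were called at E10.0 and 1 at E10.5. *Fzd10*, a Frizzled receptor, was lower in mutants at both stages, with 99.7 ± 2.30 CPM in wild-type embryos, compared with 78.8 ± 4.49 CPM in mutants at E10.0 (log2 fold change -0.34, SE 0.0454, adjusted *P*=0.00365) and 74.7 ± 3.98 and 58.4 ± 4.10 CPM at E10.5 (-0.35, SE 0.0674, adjusted *P*=0.00216). *Fzd5* was higher at E10.0, at 2.34 ± 0.197 CPM in wild-type embryos, compared with 3.47 ± 0.187 CPM in mutants (0.56, SE 0.0804, adjusted *P*=0.0434). The Dickkopf receptor gene *Lrp6* and the Frizzled gene *Fzd3* were the most abundant genes in the list that were not called. *Lrp6* had 168 ± 19.3 CPM in wild-type embryos, compared with 198 ± 14.8 CPM in mutants at E10.0 (0.24, adjusted *P*=0.190), and *Fzd3* had 157 ± 13.7 and 169 ± 23.9 CPM (0.11, adjusted *P*=0.743). At E10.5 their log2 fold changes were 0.10 and -0.02.

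Among the other secreted antagonists, 5 of 9 were tested and 2 were lower in mutants at E10.0. *Wif1*, which binds WNT ligands, had 13.2 ± 1.27 CPM in wild-type embryos, compared with 10.1 ± 1.26 CPM in mutants (-0.39, SE 0.120, adjusted *P*=0.0410). *Notum*, whose enzyme removes the lipid that WNT ligands need, had 13.3 ± 1.87 and 9.28 ± 1.69 CPM (-0.52, SE 0.176, adjusted *P*=0.0475). At E10.5 0 of the 5 were called, with 0.24 for *Wif1* and -0.20 for *Notum*. The relatives *Sfrp4*, *Sfrp5* and *Dkk4* were below the filter, with at most 0.177, 0.242 and 0.398 CPM in any embryo.

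Of 16 ligand and secretion genes tested (of 21), *Wnt2* and *Wnt2b* were called higher and *Wnt5b* lower at E10.0, and *Wnt4* and *Wnt5b* lower at E10.5. *Wnt5b* had 20.1 ± 0.0651 CPM in wild-type embryos, compared with 16.0 ± 1.001 CPM in mutants at E10.0 (-0.33, adjusted *P*=0.0501) and 19.8 ± 1.34 and 15.6 ± 1.53 CPM at E10.5 (-0.34, adjusted *P*=0.0549). *Wnt4* had 11.9 ± 1.07 and 8.54 ± 1.13 CPM at E10.5 (-0.47, adjusted *P*=0.0977), and *Wnt2b* had 1.77 ± 0.252 and 2.91 ± 0.980 CPM at E10.0 (0.73, adjusted *P*=0.0886). *Wnt2*, added after its values had been seen, had 2.59 ± 1.88 and 7.20 ± 2.59 CPM at E10.0 (1.48, adjusted *P*=0.0982), where the groups overlapped. At E10.5 its log2 fold change was -1.05, without a call (adjusted *P*=0.463). In the canonical response list, which includes the feedback inhibitor *Axin2* and the transcription factors *Lef1*, *Tcf7* and *Sp5*, 0 of 8 genes were called between genotypes at either stage under this test, where 6.61% and 3.73% of all genes were. Between stages, 2 of the 8 rose and 3 fell in wild type, and 2 rose and 2 fell in mutants, beside 10.1% and 19.2% of all genes called. The median log2 fold change of this list between genotypes was -0.08 at E10.0 and -0.11 at E10.5.

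**Figure D5:**
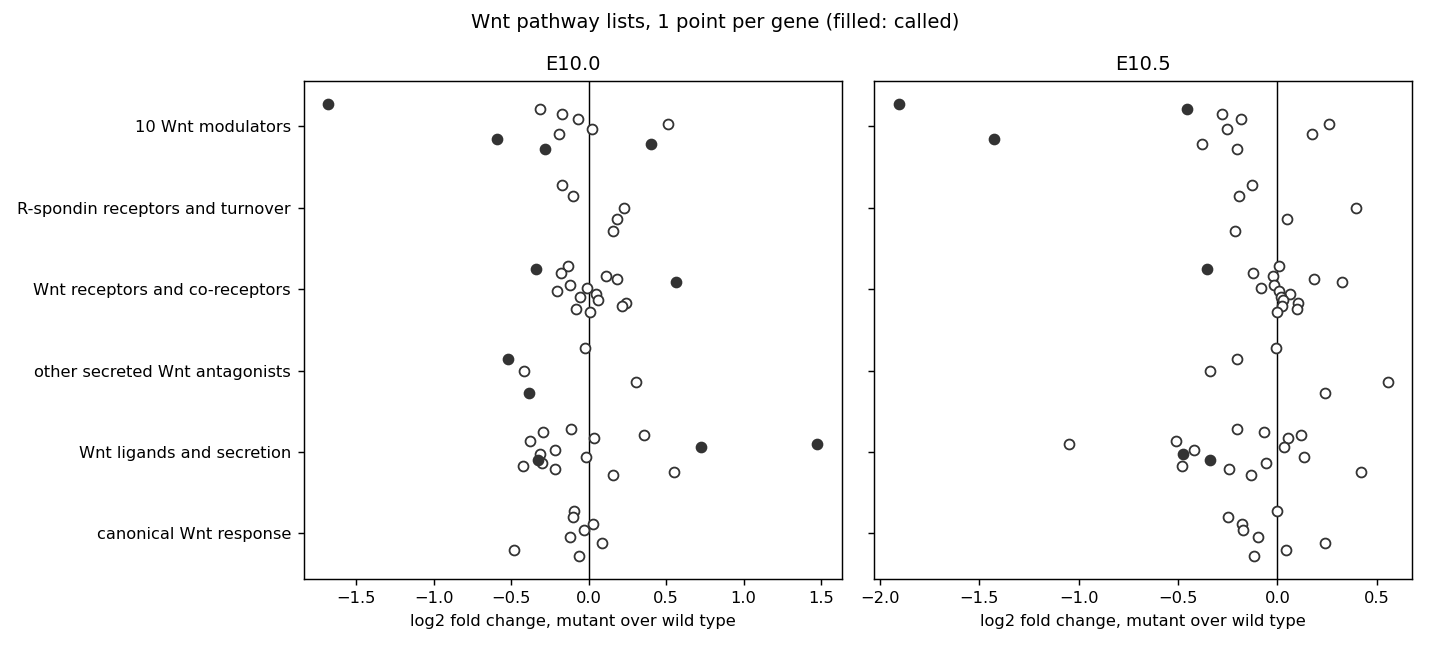
Log2 fold change of mutant over wild type at E10.0 (left) and E10.5 (right), with 1 point for each tested gene of the 10 Wnt modulators and of 5 lists of other Wnt pathway genes; filled points were called and each panel has its own axis. The points farthest to the left are *Dkk1* at both stages (-1.68 and -1.90), and no point is filled in the lists of R-spondin receptors and of the canonical response.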

How the data were processed

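RNA-seq of 14 embryos (forelimb bud pairs, polyA, unstranded, single reads) was analysed from raw read counts per gene symbol. Per the study's methods and the submitters' processing notes, the authors had aligned the reads to mm9 and refGene transcripts with TopHat 2.0.13, kept unique alignments and deposited the counts from htseq-count without strand. Reads outside genes were 6.18% to 9.86% and ambiguous reads 1.49% to 1.75%, and neither entered library sizes. The lowest count of any modulator was 102 reads, and embryos of a group differed by more than counting noise. In mutants at E10.0, *Sfrp1* had 5219 to 11263 reads and a coefficient of variation of 17.3%. There *Rspo3* had 274 to 729 reads and a coefficient of 41.8%.

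After removal of the 1041 symbols of chromosomes X, Y and M, tests covered the 12393 genes that reached 1 CPM in 3 or more samples. edgeR 4.0.16 normalized libraries by TMM, estimated common and tag-wise dispersions (prior df 10) over all 14 samples, and compared groups by its exact test. The test, prior df, filters and thresholds follow the study's methods, which do not say whether both stages entered 1 fit. The quasi-likelihood test served for the interaction, which the exact test cannot fit. SE of log2 fold changes are from the replicate variances of CPM. Lengths are merged exons of the mm9 gene annotation, not refGene. Embryos, 1 per replicate, are the replicates.

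Alternatives were the quasi-likelihood test, DESeq2 1.42.0, RLE size factors, library sizes without *Rn45s*, other low count filters, kept sex chromosomes, pairs of groups fitted apart, each sample left out, the replicate number as a block, and replicates 1 to 3 alone. Deviations of same-numbered wild-type and mutant embryos had mean correlations of -0.00702 at E10.0 and -0.156 at E10.5 (2 pairs each). Wild type across stages had -0.157 (3 pairs). So few pairs cannot exclude pairing by number. Same-numbered mutants of the 2 stages deviated together in all 3 pairs (r 0.269 to 0.611). So did mutants with different numbers among replicates 1 to 3 (r 0.112 to 0.349) and among replicates 4 and 5 (0.286 and 0.383). Across these 2 sets every pair was negative (-0.587 to -0.174). Deviations from a group mean cancel out within the group, so that positive correlations in some pairs bring negative ones in others. The sets are those with lower and higher *Rn45s* shares, a split that the labels do not explain. A block, fitted by the quasi-likelihood test, changed no call of a modulator between the mutant stages. No 2 replicates agreed within sampling noise (chi-square divided by its degrees of freedom was 14.0 or more). This ratio was highest, at 434 and 363, for mutant replicate 5 of E10.5 against replicates 1 and 2, which had 21.0 between them. The tests were also run on counts simulated from the fitted dispersions. These counts hold no split of mutant replicates 4 and 5, so that this check does not cover it.

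The modulators and all lists were chosen with earlier results of these data known. Named are the 10 modulators, *Smad4*, up to 3 called genes per pathway list with the smallest *P* between genotypes, the 2 most abundant uncalled receptors, and the 3 nearest profiles of each modulator called between genotypes. Promoters come from RefSeq (GRCm38.p6), and mm9 coordinates were not converted. R 4.3.3, Python 3.11.15 and matplotlib 3.10.9 were used.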

Additional observations from a re-analysis of the deposited data

Results flagged for a closer look

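*Dkk3* in mutants at E10.5 held 1 embryo far from the others. Replicate 5 had 3.84 CPM and replicates 1, 2 and 4 had 4.85, 4.76 and 4.87 CPM, and the gap below the other 3 took up a fraction of 0.896 of the range of the group. Of 20 sets of 4 embryos looked at in this way (10 genes in mutants of 2 stages) 1 was flagged, and chance flags about 1 in 20. The 10 sets of a stage share the same 4 embryos and are not independent. Mutant replicate 5 of E10.5 was also the lowest of the 4 for *Rspo1*, *Rspo4*, *Dkk2*, *Sfrp1*, *Sfrp2* and *Frzb*. It was not the lowest for *Rspo2*, *Rspo3* and *Dkk1*. The embryo is also the library with the highest share of *Rn45s* reads, 8.05%, and the part of this in its levels was not tested.

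*Sfrp1* had genotype differences of opposite sign at the 2 stages, with an interaction of -0.78 on the log2 scale (SE 0.210). All 4 mutants were above the wild-type mean at E10.0 and all 4 below it at E10.5. The interaction had an unadjusted *P* of 0.00131 and an adjusted *P* of 0.295 in edgeR's quasi-likelihood test, and an adjusted *P* of 0.0252 in DESeq2.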

How the results depend on the processing

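Each of the 1190 alternative values of the modulators was compared with its main value: 1123 kept direction and side of the threshold, 34 no longer passed, 18 newly passed and 15 turned sign. Many of these values come from fits that left out an embryo of neither group compared, where little can change. Results that stayed uncalled are also among those that kept their side. Of the 15 results called, 10 were kept in every alternative and 0 turned sign. Sign changes were seen in 9 uncalled results. With 1 embryo left out, *Rspo2* at E10.0 ranged from -0.0623 to 0.151 (below 0 without mutant replicate 1 or 3), *Rspo3* at E10.0 from -0.448 to 0.0598 (above 0 without mutant replicate 3), *Rspo2* across wild-type stages from -0.0257 to 0.0460 (below 0 without wild-type replicate 2 or 3 of E10.0 or 3 of E10.5), *Dkk1* across wild-type stages from -0.276 to 0.0495 (above 0 without wild-type replicate 2 of E10.0), *Sfrp2* across mutant stages from -0.0758 to 0.0263 (above 0 without mutant replicate 4 of E10.0) and the interaction of *Dkk1* from -0.422 to 0.000264 (above 0 without mutant replicate 3 of E10.0). Replicates 1 to 3 alone gave 0.0821 for *Sfrp2* across mutant stages and 0.0716 for the interaction of *Dkk3*, and kept sex chromosomes gave -0.00171 for *Rspo2* across wild-type stages.

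The replicate number as a block was fitted by the quasi-likelihood test, so that it differs from the main exact test in 2 ways. With it, *Dkk2* at E10.5 no longer passed (-0.34, quasi-likelihood adjusted *P*=0.213), while *Rspo1* passed at E10.0 (0.53, 0.0999). *Rspo3* across wild-type stages did not pass under this test with the block (0.79, 0.118) or without it (0.75, 0.168). The same block turned *Rspo3* at E10.5 to -0.0562 and *Rspo2* across wild-type stages to -0.00204, and a replicate block within the mutants alone, chosen after seeing the data, turned *Frzb* to -0.0292. It changed no other call of a modulator. Genes called with the block numbered 1961 at E10.0 (main 819) and 280 at E10.5 (main 462). The quasi-likelihood test without the block called 601 and 341.

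Counts over all genes moved by over 1.5 times elsewhere: 2018 at E10.0 with replicates 1 to 3 alone, 1932 for wild-type stages fitted apart (main 1256), and for the interaction (main 23) 87 with DESeq2, 39 without a low count filter, 5 with at least 5 CPM and 6 with replicates 1 to 3 alone. Modulators called across wild-type stages were 2 rather than 4 under the quasi-likelihood test and without a filter, and for the interaction 2 with DESeq2 and 1 without a filter rather than 0. With 1 embryo left out, genes called ranged from 254 to 1062 at E10.0, 286 to 516 at E10.5, 484 to 1515 for wild-type stages, 1895 to 2732 for mutant stages and 7 to 34 for the interaction, and modulators called from 2 to 5, 2 to 4, 2 to 4, 4 to 5 and 0 to 1. The fewest were called without wild-type replicate 3 (E10.0), wild-type replicate 2 of E10.5 (E10.5), wild-type replicate 2 of E10.0 (wild-type stages) and mutant replicate 5 of E10.5 (interaction). At E10.0, 413 genes were called higher and 406 lower, and 519 and 313 without *Rn45s* in the library sizes, 494 and 302 without a filter, 625 and 1336 with the block and 765 and 1253 with replicates 1 to 3 alone. No scaling moved the median of all genes by 0.1. The causes of these shifts were not tested. *Rspo1* and *Dkk3*, at a few CPM, and *Dkk1* in mutants had the lowest counts, with minima of 102, 118 and 106 reads.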
